A study of Rattus norvegicus with 9 samples.

Results

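The genes described here receive, carry and break down the monoamine transmitters dopamine, serotonin and noradrenaline. They are the 5 dopamine receptor genes Drd1, Drd2, Drd3, Drd4 and Drd5, Ppp1r1b, which encodes DARPP-32, the monoamine oxidase genes Maoa and Maob, and Slc18a2, which encodes the vesicular monoamine transporter VMAT2. These 9 genes were chosen by name and found through the gene symbols of the array annotation, among 14506 genes that had a probe set with exactly 1 symbol. Each had 1 probe set on the array. RNA came from the blood, the hippocampus (HC) and the prefrontal cortex (PFC) of male Wistar rats that had received no treatment, had arrived at 6 weeks of age and had been housed for 1 week. Blood had been collected into PAXgene tubes, and HC and PFC had been punched out of frozen coronal sections. Each tissue was measured on 3 whole-transcript arrays (Rat Gene 1.0 ST), 1 each for the rats numbered 2, 5 and 7, which gave 9 arrays. The sources do not agree on how many rats were sampled, so the number of animals rests on these arrays.

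Dopamine acts on receptors of 2 classes. Drd1 and Drd5 encode receptors of the D1 class, which raise cyclic AMP through stimulatory G proteins, and Drd2, Drd3 and Drd4 encode receptors of the D2 class, which lower it through inhibitory G proteins. DARPP-32 is an inhibitor of protein phosphatase 1 that is switched on by protein kinase A below the D1 class and is known best from striatal projection neurons. After release, monoamines are taken up again, packed into vesicles by VMAT2 or oxidized on the outer membrane of mitochondria by MAO-A and MAO-B. MAO-A prefers serotonin and noradrenaline, and MAO-B is known from astrocytes, from serotonin neurons and, in humans, from platelets. The cell bodies of dopamine, noradrenaline and serotonin neurons lie in the midbrain and brainstem, outside both brain regions sampled here, so the receptors, but not the cell bodies of the neurons that release the transmitters, belong to the tissues measured.

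The widest differences between blood and brain were those of Maoa, Maob and Slc18a2, and the promoters of these genes are shown for that reason. Sequences of 250 bases before to 50 bases after the gene start were taken from RefSeq, assembly GRCr8, where 8 of the 9 genes were matched (all but Ppp1r1b). Capitals mark GC boxes (GGGCGG, or CCGCCC on the other strand), the cyclic AMP response element TGACGTCA and its shorter core TGACG (or, on the other strand, CGTCA), which the full element contains. Maoa and Maob are neighbours on the X chromosome and lie on opposite strands. The promoter of Maoa is chrX:8681323-8681622 on the minus strand, that of Maob chrX:8490155-8490454 on the plus strand and that of Slc18a2 chr1:268399771-268400070 on the plus strand.
Maoa: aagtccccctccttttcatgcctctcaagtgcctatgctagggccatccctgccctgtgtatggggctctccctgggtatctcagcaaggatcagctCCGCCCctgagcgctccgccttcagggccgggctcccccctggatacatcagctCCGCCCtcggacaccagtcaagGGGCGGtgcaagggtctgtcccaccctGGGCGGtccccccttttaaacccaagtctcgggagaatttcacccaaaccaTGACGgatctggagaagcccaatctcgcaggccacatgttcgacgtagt
Maob: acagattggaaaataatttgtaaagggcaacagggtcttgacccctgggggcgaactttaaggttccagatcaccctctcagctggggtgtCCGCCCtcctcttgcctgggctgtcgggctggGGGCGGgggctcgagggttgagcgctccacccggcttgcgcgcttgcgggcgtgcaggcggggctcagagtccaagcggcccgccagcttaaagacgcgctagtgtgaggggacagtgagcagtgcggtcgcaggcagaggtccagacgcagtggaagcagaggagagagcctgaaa
Slc18a2: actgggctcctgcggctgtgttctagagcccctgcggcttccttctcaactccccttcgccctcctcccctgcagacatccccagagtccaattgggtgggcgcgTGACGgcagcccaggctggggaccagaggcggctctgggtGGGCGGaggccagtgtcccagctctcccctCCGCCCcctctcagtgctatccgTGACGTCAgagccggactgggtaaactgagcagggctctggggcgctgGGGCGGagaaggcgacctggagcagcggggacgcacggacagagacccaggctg
The Maoa promoter held 4 GC boxes and 1 core, and this core lay after the gene start, not before it. The annotated gene start of Maoa fell on the letters ATG, which run into this core. Whether they are the start codon, and the core of Maoa thus part of the coding sequence, was not tested. The Maob promoter held 2 GC boxes. The Slc18a2 promoter held 3 GC boxes, 1 full element and 3 cores, with those inside the full element counted. Of 33469 promoters of the same length, 33.06% held a GC box, 1.83% the full element and 21.2% a core. Their GC contents were 61.0% (Maoa), 63.0% (Maob) and 68.33% (Slc18a2). The letters TATAAA, which 14.22% of all promoters held on either strand, were not found in these windows. A match describes the sequence and was not tested as a site.

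All values are log2 RMA values as deposited, quantile normalized by the authors, so that the 9 arrays had nearly equal means (6.15 to 6.2). Values of different probe sets carry different probe affinities, so levels were compared between tissues for 1 gene and never between genes. A gene was called present in a tissue when its mean over 3 arrays was above 6.2. As a measure of background, the 95th percentile of 1298 probe sets that detect smell, pheromone and taste receptors (chemosensory receptors) was taken on each array, which was 5.52 to 5.67 for blood, 4.85 to 4.91 for HC and 4.83 to 4.96 for PFC. A probe set at or under this level on all 3 arrays of a tissue was called not above background there. The tissues carried the markers of their names. The summed linear level of 10 neuron markers was 440 to 497 in blood, 30917 to 32155 in HC and 33400 to 34116 in PFC, that of 7 erythroid markers was 36160 to 40149 in blood and 1104 to 1982 in the brain regions, and that of 6 markers of hippocampal fields was 2321 to 2640 in HC and 716 to 919 in PFC. Of 4 markers of neocortical layers, the sum was 842 to 901 in HC and 1061 to 1261 in PFC. Of these 4, Scube1 alone was called between the regions, lower in HC, as were 4.66% of all probe sets. Of 10 choroid plexus markers, the sum was 3706 to 4361 in blood, 1331 to 2795 in HC and 304 to 329 in PFC. Among these, Aqp1 had a mean of 11.71 in blood and Ttr one of 10.42 in HC.

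Of the 9 genes, Ppp1r1b alone was present in all 3 tissues, Maoa and Maob were present in HC and PFC, and Drd1 was present in PFC. The other 5 genes, Drd2, Drd3, Drd4, Drd5 and Slc18a2, had means under the cut-off in each tissue. The fit across genes covered 16884 probe sets with a mean above 6.2 in at least 1 tissue, and thus 4 of the 9 genes, while the other 5 were read from a fit of all 29214 probe sets. Both brain regions were compared with the same blood arrays, so the HC and PFC differences from blood are not independent.

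**Figure D1:**
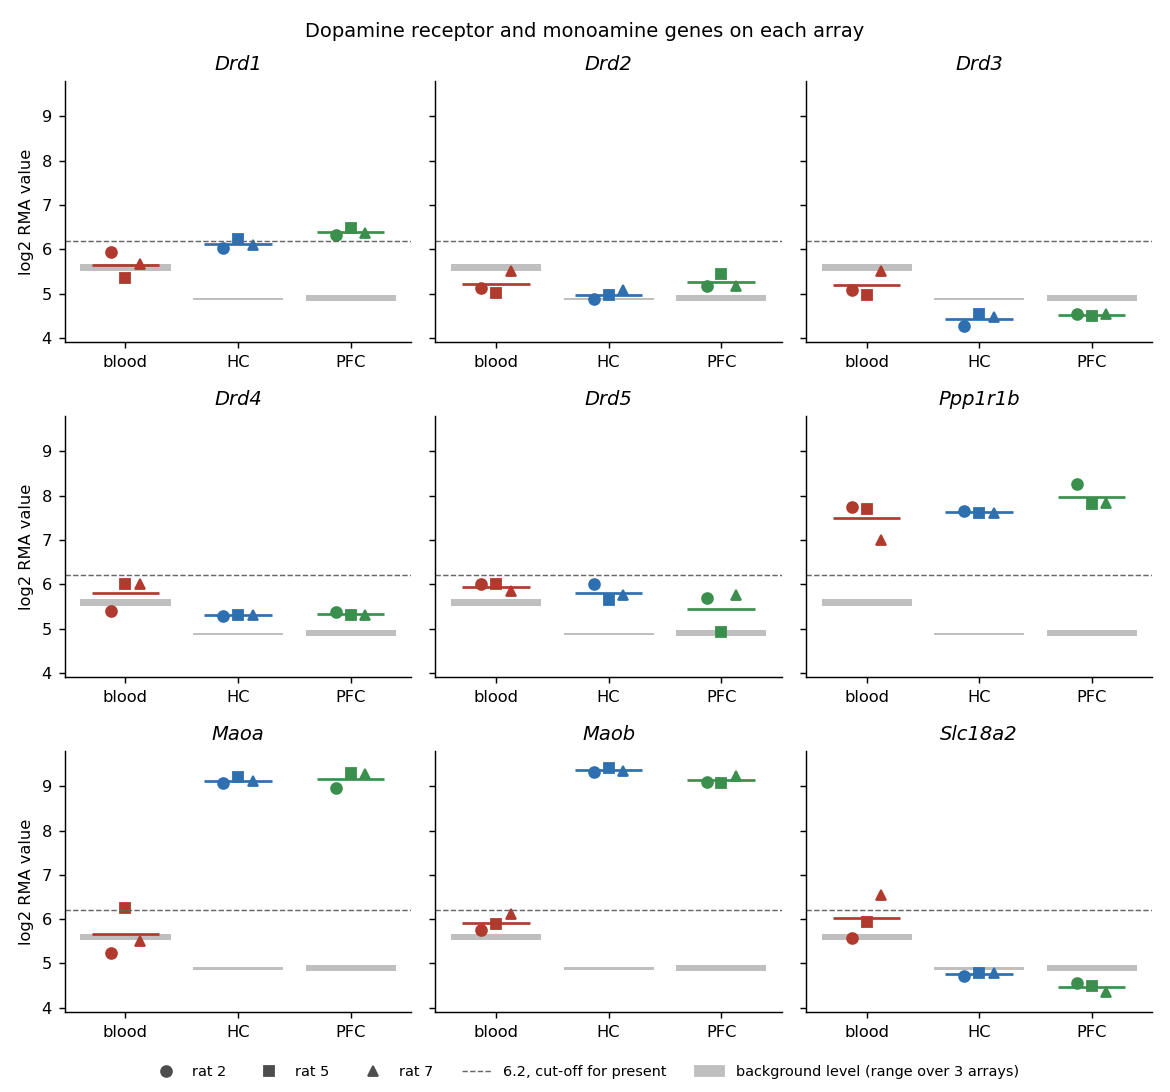
The log2 RMA value of each gene (vertical axis) on each of the 9 arrays, by tissue (horizontal axis), with the symbol giving the rat and the line the mean of 3 arrays. The grey band is the background level and the dashed line the cut-off of 6.2; Maoa and Maob lie above 8.9 in HC and PFC and under 6.3 in blood, and Slc18a2 lies above the brain regions in blood.

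Maoa and Maob were the genes with the widest differences, 9.26-fold to 11.4-fold higher in brain than in blood. Maoa encodes the form of the enzyme that oxidizes serotonin and noradrenaline. Its values in rats 2, 5 and 7 were 5.23, 6.24 and 5.51 for blood, 9.07, 9.20 and 9.12 for HC and 8.96, 9.29 and 9.27 for PFC. Every brain array was above every blood array, where 76.3% of all probe sets did not overlap between HC and blood and 75.7% between PFC and blood. Blood was above background on 1 of 3 arrays, that of rat 5. The mean of 5.66 ± 0.52 (SD, n = 3) in blood compared with 9.13 ± 0.07 in HC and 9.17 ± 0.19 in PFC. The log2 difference from blood was 3.47 ± 0.22 (SE) in HC, or 11.1-fold (adjusted p = 2.19e-07), and 3.51 ± 0.22 in PFC, or 11.4-fold (adjusted p = 1.97e-07). Of all 29214 probe sets, 4.02% differed more widely between HC and blood and 3.9% between PFC and blood. The blood arrays of Maoa were also spread more than most, since 8.91% of all probe sets had a wider SD in blood.

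Maob, the form that prefers phenylethylamine in rodents, behaved alike in size but was measurable in blood. In rats 2, 5 and 7 the values were 5.75, 5.89 and 6.12 for blood, 9.32, 9.40 and 9.35 for HC and 9.10, 9.07 and 9.23 for PFC. All blood arrays were above background and none reached the cut-off, and HC was above PFC in each rat. The log2 difference from blood was 3.44 ± 0.11 in HC, or 10.8-fold (95% interval 3.20 to 3.68, adjusted p = 1.33e-09), and 3.21 ± 0.11 in PFC, or 9.26-fold (95% interval 2.97 to 3.45, adjusted p = 2.01e-09). In these bulk samples a lower number of cells of a type and less RNA per cell cannot be told apart.

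Slc18a2 ran the other way, with its highest values in blood. VMAT2 loads monoamines, and histamine as well, into vesicles, and monoamine neurons, platelets and mast cells are known to carry it. Its values in rats 2, 5 and 7 were 5.58, 5.92 and 6.55 for blood, 4.72, 4.78 and 4.79 for HC and 4.57, 4.49 and 4.35 for PFC. Every blood array was above background, although by less than 0.01 in rat 2, and no array of either brain region was, so the difference is only a limit. Blood was at least 2.19-fold higher than HC and at least 2.21-fold higher than PFC (adjusted p = 0.000358 and 8.71e-05 in the fit of all probe sets). The measured means were 6.02 ± 0.49 (SD, n = 3) for blood, 4.76 ± 0.04 for HC and 4.47 ± 0.11 for PFC. The 1298 chemosensory receptor probe sets, used as background, were also lower in brain, by a median of 0.50 in HC and 0.52 in PFC on the log2 scale, and 5% of them lay under -1.06 in HC and -1.08 in PFC, compared with measured differences of -1.26 and -1.55 for Slc18a2.

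Markers of blood cells that store monoamines were read beside Slc18a2. The summed level of 6 platelet markers was 6826, 5931 and 8419 in the blood of rats 2, 5 and 7 and 221 to 256 in the brain regions, and rat 7 was the highest in blood for both the sum and Slc18a2, while rats 2 and 5 took opposite orders. Of 9 markers of basophils and mast cells, 5 were not above background in blood, and the sum there was 380, 441 and 403. It was 606 to 712 in HC and 304 to 316 in PFC. Of the 3 in the fit, 2 were called lower and 1 higher in each region than in blood. Of all probe sets, 36.3% were called lower and 47.6% higher in HC, and 36.7% and 47.3% in PFC. The higher marker was Kit, with means of 5.67 in blood, 8.90 in HC and 7.11 in PFC. Hdc, the enzyme that makes histamine, had a mean of 6.22 ± 0.21 in blood and was not above background in HC or PFC. The part of these cells in the Slc18a2 level was not tested. Of 14 markers of monoamine neurons 12 were on the array, and their summed level was 1042 to 1096 in blood, 869 to 946 in HC and 602 to 642 in PFC. In the brain regions 3 of the 12, Tph2, Dbh and Foxa2, were not above background in either, and 2 passed the cut-off. These were Lmx1b (6.50 in each region) and Nr4a2, a transcription factor also known from forebrain neurons, with a mean of 8.82 in HC and 7.36 in PFC and a called difference between the regions of 1.45. Th, the rate-limiting enzyme of catecholamine synthesis, was above it on 2 of 3 HC arrays and on all 3 PFC arrays.

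Among the receptors, Drd1 had its highest values in PFC. Rats 2, 5 and 7 had values of 5.95, 5.35 and 5.68 for blood, 6.03, 6.24 and 6.11 for HC and 6.32, 6.48 and 6.37 for PFC. The 3 tissues did not overlap, and the order from blood over HC to PFC held within each rat. Of all probe sets, 76.3% did not overlap between HC and blood, 75.7% between PFC and blood and 29.9% between HC and PFC. Blood was above background on 2 of 3 arrays. The log2 difference from blood was 0.73 ± 0.14 in PFC, or 1.66-fold (adjusted p = 0.00077), and 0.47 ± 0.14 in HC, or 1.38-fold (adjusted p = 0.011). The HC difference was no longer called without rat 5 (0.26, adjusted p = 0.0835) or without rat 7 (0.49, adjusted p = 0.0789). With arrays scaled on a panel of 12 housekeeping genes, the HC difference turned to -0.03 and the PFC difference fell to 0.15 (adjusted p = 0.226).

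Drd5, the other receptor of the D1 class, lay close to 6 on most arrays. Its values in rats 2, 5 and 7 were 6.0, 6.0 and 5.84 for blood, 6.0, 5.65 and 5.75 for HC and 5.69, 4.91 and 5.75 for PFC. All 9 arrays were above background, and the PFC array of rat 5 stood 0.77 below the nearest other PFC array. In the fit of all probe sets the PFC difference from blood was -0.50 ± 0.21 (adjusted p = 0.0498), and HC differed from blood by -0.15 ± 0.21 (adjusted p = 0.522). With only the 6 arrays of PFC and blood, the adjusted p of the PFC difference was 0.0806. Without the PFC array of rat 5 the difference was -0.23, and without rat 5 altogether -0.20.

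The receptors of the D2 class lay under the cut-off on every array. Drd2, the target of antipsychotic drugs, had values in rats 2, 5 and 7 of 5.12, 5.02 and 5.51 for blood, 4.87, 4.97 and 5.08 for HC and 5.16, 5.44 and 5.17 for PFC. It was not above background in blood, was above it on 2 of 3 HC arrays and on all PFC arrays, and no difference from blood was called (-0.24 in HC, adjusted p = 0.145, and 0.04 in PFC, adjusted p = 0.813). With arrays scaled on the housekeeping panel these values were -0.74 in HC and -0.54 in PFC, and the sign in PFC turned. Since background itself was higher in blood, the level in blood is only an upper bound and no fold is given.

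Drd4, a receptor known from cortical neurons, was higher in blood than in brain on the deposited scale. The arrays of rats 2, 5 and 7 gave 5.39, 6.01 and 6.0 for blood, 5.29, 5.31 and 5.30 for HC and 5.36, 5.31 and 5.31 for PFC. All 3 HC and all 3 PFC arrays were above background. Blood was above background in rats 5 and 7 but not in rat 2, whose value lay only 0.03 above its own PFC array. In the fit of all probe sets the log2 difference from blood was -0.51 ± 0.16 in HC (adjusted p = 0.0144) and -0.47 ± 0.16 in PFC (adjusted p = 0.0194), beside medians of -0.50 and -0.52 for the chemosensory receptor probe sets. With only the 6 arrays of PFC and blood and the rat as a term (replicate block), the PFC difference was not called (adjusted p = 0.052).

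Drd3, a receptor known from the ventral striatum, was not above background in any tissue. Its values in rats 2, 5 and 7 were 5.08, 4.97 and 5.52 for blood, 4.26, 4.54 and 4.47 for HC and 4.54, 4.49 and 4.54 for PFC. With all 9 arrays at or under background, and background itself higher in blood, neither a fold nor a direction is given, although the fit of all probe sets called its deposited values lower in both regions (adjusted p = 0.000908 and 0.00218). The middle 50% of the chemosensory receptor probe sets reached down to -0.70 in HC and -0.74 in PFC against blood. The HC array of rat 5 and the PFC arrays of rats 2 and 7 held the same value of Drd3 to the last deposited digit, as the PFC arrays of rats 5 and 7 did for Drd4 and the HC and PFC arrays of rat 7 for Drd5. Such ties between at least 2 arrays of a tissue occurred in 14.39% of probe sets in HC, 12.816% in PFC and 0.904% in blood, so a small SD in a brain region can understate the error.

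Ppp1r1b was present in each tissue, blood included. For rats 2, 5 and 7 the values were 7.75, 7.70 and 7.01 for blood, 7.66, 7.61 and 7.60 for HC and 8.25, 7.82 and 7.83 for PFC. PFC lay above both other tissues on every array, while blood and HC overlapped, with the lowest value in the blood of rat 7. Of all probe sets, 75.7% did not overlap between PFC and blood and 29.9% between HC and PFC. The log2 difference between PFC and blood was 0.48 ± 0.19, or 1.40-fold (adjusted p = 0.0409), and that between HC and blood 0.14 ± 0.19 (95% interval -0.30 to 0.57, adjusted p = 0.52). The PFC call was lost with only the 6 arrays of PFC and blood (adjusted p = 0.0779), without the blood array of rat 7 (0.24, adjusted p = 0.117), without the PFC array of rat 2 (0.34, adjusted p = 0.155), without any 1 of the HC arrays (adjusted p of 0.056 to 0.0566) and without any 1 of the rats 2, 5 and 7 (0.47, 0.66 and 0.31, adjusted p = 0.0982, 0.0605 and 0.121). Both differences turned negative with arrays scaled on the housekeeping panel (-0.36 in HC and -0.10 in PFC).

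**Figure D2:**
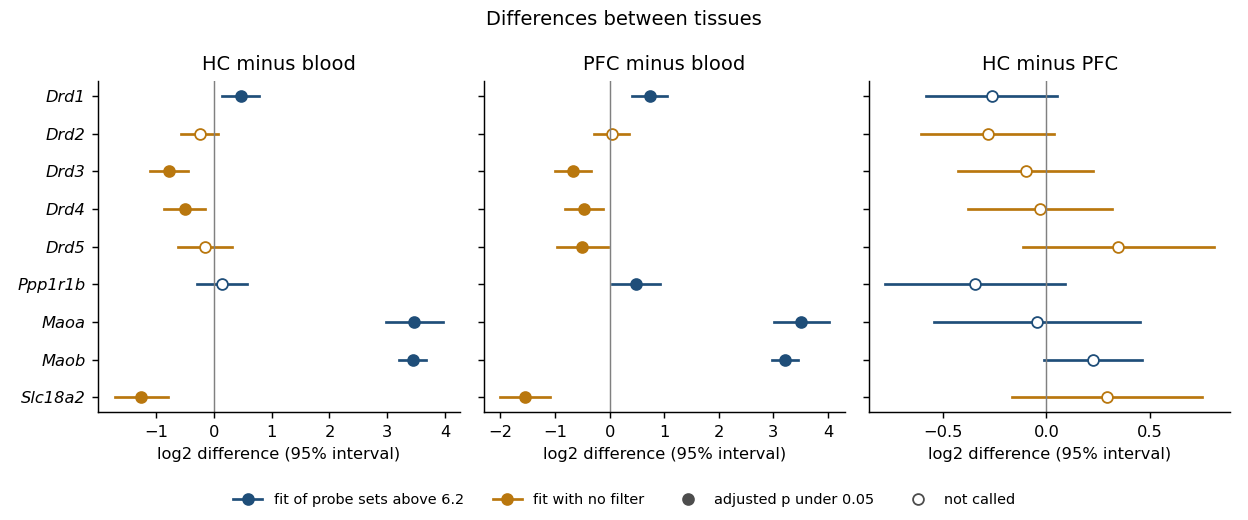
The log2 difference between tissues (horizontal axis) for each gene (vertical axis) with its 95% interval, in the fit of probe sets above 6.2 (blue) or of all probe sets (orange), with filled points for an adjusted p under 0.05. Maoa and Maob lie at 3.21 to 3.51 against blood, and all intervals of HC against PFC include 0.

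Counted over the genes in the fit, 3 of 4 were called higher in HC than in blood (Drd1, Maoa and Maob), where 47.6% of all 16884 probe sets were called higher and 36.3% lower. In PFC all 4 were called higher than in blood, against 47.3% of all probe sets called higher and 36.7% lower. Drd1, Maoa and Maob passed the filter only through a brain region, so the filter itself favoured higher calls in brain for them. In the fit of all 29214 probe sets, 3 of the 5 other genes were called lower in HC than in blood (Drd4, Slc18a2 and Drd3, the last with no array above background), against 46.5% of all probe sets called lower and 29% higher. In PFC 4 of these 5 were called lower (the same 3 and Drd5), against 47% of all probe sets called lower and 28.7% higher. Most probe sets differed between blood and brain, so these counts say little about the 9 genes. Of the 1298 chemosensory receptor probe sets, 65.9% were called lower in HC and 69.1% in PFC.

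Between the brain regions none of the 4 genes in the fit was called, where 4.51% of all probe sets were called higher in HC and 4.66% lower. Nor was any of the other 5 in the fit of all probe sets, in which 2.11% were called higher and 2.33% lower. The differences were small. Drd1 differed between HC and PFC by -0.29, -0.24 and -0.26 in rats 2, 5 and 7 (mean -0.26, 95% interval -0.58 to 0.05, adjusted p = 0.388). Ppp1r1b differed by -0.59, -0.21 and -0.23 (mean -0.34, 95% interval -0.78 to 0.09, adjusted p = 0.426). Both were lower in HC than in PFC in each rat.

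Maob took the opposite direction, with differences of 0.22, 0.33 and 0.13 in rats 2, 5 and 7 (mean 0.23, 95% interval -0.01 to 0.46, adjusted p = 0.293), and Maoa had no common direction (0.11, -0.09 and -0.15, mean -0.05, 95% interval -0.54 to 0.45, adjusted p = 0.964). Drd2 differed by -0.29, -0.48 and -0.08, and Slc18a2 by 0.15, 0.29 and 0.44, with neither region of Slc18a2 above background. The arrays of HC and PFC did not overlap for 6 of the 9 genes, Drd1, Drd2, Drd4, Ppp1r1b, Maob and Slc18a2, while 29.9% of all probe sets did not overlap. The gap for Drd4 was 0.0074.

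These results turned on which arrays entered the estimate of the spread. The median SD over probe sets in the fit was 0.22 for blood, 0.07 for HC and 0.08 for PFC, and the 9-array fit shares 1 estimate over the 3 tissues. With only the 6 brain arrays, Drd1 was called lower in HC (SE 0.07, adjusted p = 0.034) and Maob higher (SE 0.06, adjusted p = 0.0289), where 12.7% of all probe sets were called higher and 13.1% lower. With the rat as a term as well (replicate block), Ppp1r1b was also called lower (adjusted p = 0.0439), Drd1 had an adjusted p of 0.0139 and Maob one of 0.0448, with 12.8% of all probe sets called higher and 12.9% lower. Slc18a2 was called higher in HC with the 6 brain arrays and no filter (adjusted p = 0.0369, with 6.11% of all probe sets called higher and 6.36% lower) but not with the replicate block (adjusted p = 0.0836).

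**Figure D3:**
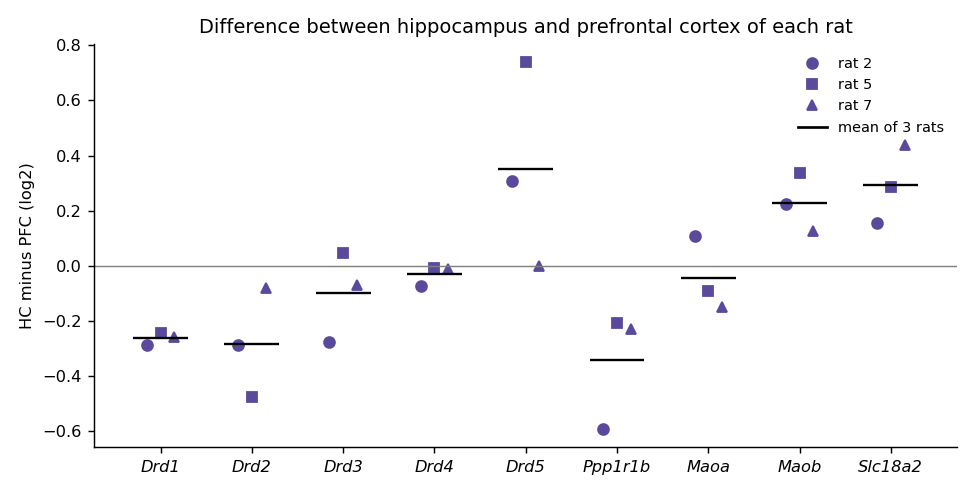
The difference between HC and PFC of the same rat on the log2 scale (vertical axis) for each gene, with the symbol giving the rat and the line the mean of 3 rats. Drd1, Drd2, Drd4 and Ppp1r1b were lower in HC in each rat, Maob and Slc18a2 higher, and Drd5 ranged from 0 to 0.74. With arrays scaled on the housekeeping panel the mean difference of Drd4 turned to 0.05.

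Cell type markers were read beside some of these genes. Of 18 markers of striatal projection neurons, in which Drd1, Drd2 and Ppp1r1b are known to be abundant, 16 were on the array. Their summed level was 2215 to 2334 in HC and 2524 to 2926 in PFC, highest in the PFC of rat 2, which also had the highest Ppp1r1b value but the lowest Drd1 value among the PFC arrays. Of the 10 striatal markers in the fit, Scn4b (HC minus PFC -1.31) and Penk (-0.93) were called lower in HC and Pdyn (0.87) higher. Of all probe sets, 4.66% were called lower and 4.51% higher. Isl1 and Ido1 were not above background in either region. Astrocyte markers, 9 of them, summed to 17161 to 17930 in HC and 14431 to 15124 in PFC. The sums of 9 oligodendrocyte markers were 8368 to 10229 in HC and 4508 to 6569 in PFC. Both lay in the direction of Maob between regions, with 1 astrocyte and 6 oligodendrocyte markers called higher in HC (4.51% of all probe sets). Within regions, the highest Maob value in HC (rat 5, 9.40) met the lowest astrocyte sum there. The highest Maob value in PFC (rat 7, 9.23) met the lowest of both sums. Maob spanned only 9.32 to 9.40 in HC and 9.07 to 9.23 in PFC, so these orders of 3 arrays decide nothing. The part of these cells in the differences between regions was not tested.

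The genes of the wider pathway were described by lists of named genes, and no test was run on a list. Of 13 genes of monoamine synthesis and its cofactor tetrahydrobiopterin, 11 were on the array and 6 in the fit, of which 2 were higher and 4 lower than blood in both HC and PFC (medians of -1.25 and -1.22, against 0.22 and 0.20 over all probe sets in the fit, of which 36.3% and 36.7% were lower). None was called between HC and PFC, where 4.51% of all probe sets were called higher and 4.66% lower. Gch1, the first enzyme of tetrahydrobiopterin synthesis, had a mean of 10.83 ± 0.25 in blood and was not above background in either region, so blood was at least 61.4-fold higher than HC and at least 61.8-fold higher than PFC (adjusted p = 1.03e-10 and 1.01e-10). Qdpr, which regenerates the cofactor, had means of 7.05 ± 0.35 (blood), 9.74 ± 0.17 (HC) and 9.36 ± 0.38 (PFC). The log2 difference of Qdpr from blood was 2.69 ± 0.22 in HC and 2.31 ± 0.22 in PFC (adjusted p = 1.22e-06 and 3.94e-06). Th, Dbh, Tph1 and Tph2, which carry out the steps particular to catecholamines and serotonin, did not reach the cut-off in any tissue.

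Of 8 monoamine transporter genes, 7 were on the array and 2 in the fit. Slc6a4, the serotonin transporter, had means of 8.01 ± 0.31 in blood, 5.06 ± 0.04 in HC and 5.09 ± 0.15 in PFC. Its log2 difference from blood was -2.96 ± 0.15 in HC and -2.92 ± 0.15 in PFC (adjusted p = 3.69e-08 and 3.93e-08). All 5 platelet markers in the fit were called lower in both regions too, beside 36.3% (HC) and 36.7% (PFC) of all probe sets. The same held for all 10 markers of neutrophils and monocytes, all 8 of lymphocytes and 6 of 7 erythroid markers in the fit. The part of these cells in the Slc6a4 level was not tested. Slc29a4, a low-affinity monoamine transporter of the plasma membrane, was higher in HC than in PFC by 0.90 ± 0.14 (6.70 ± 0.09 against 5.80 ± 0.15, adjusted p = 0.00257). It was not above background in blood, and HC was at least 2.16-fold higher than blood (adjusted p = 5.56e-06). The transporters of dopamine and noradrenaline, Slc6a3 and Slc6a2, did not reach the cut-off.

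Of 10 genes that work beside the monoamine oxidases, 9 were on the array and 7 in the fit, of which 5 were higher and 1 lower than blood in each region (medians 1.27 in HC and 1.49 in PFC), beside 47.6% of all probe sets higher and 36.3% lower in HC and 47.3% and 36.7% in PFC. Aldh1a1, an aldehyde dehydrogenase of dopamine neurons and other cells that oxidizes the aldehydes left by the oxidases, had means of 8.78 ± 0.18 in HC and 7.95 ± 0.18 in PFC. It was higher in HC than in PFC by 0.83 ± 0.15 (adjusted p = 0.00632). This was the only call between regions in this list, beside 4.51% of all probe sets higher in HC and 4.66% lower. In blood Aldh1a1 was not above background, and HC was at least 9.12-fold and PFC at least 5.12-fold higher (adjusted p = 7.49e-09 and 4.48e-08). Aldh2, the mitochondrial aldehyde dehydrogenase, was lower in brain than in blood, where its mean was 9.55 ± 0.26, with differences of -1.30 ± 0.14 in HC and -1.17 ± 0.14 in PFC (adjusted p = 1.1e-05 and 2.53e-05).

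Of 20 signalling genes of the cyclic AMP and phosphatase arm, all in the fit, 14 were higher and 2 lower in HC than in blood, and 16 higher and 1 lower in PFC (medians 1.95 and 2.15), beside 47.6% of all probe sets called higher and 36.3% lower in HC and 47.3% and 36.7% in PFC. Prkar1b, a regulatory subunit of protein kinase A, had the widest difference from blood, 4.68 ± 0.15 in HC and 5.17 ± 0.15 in PFC (adjusted p = 1.44e-09 and 7.54e-10). Ppp1cb, a catalytic subunit of the phosphatase that DARPP-32 inhibits, was lower in brain, with differences from blood of -0.37 ± 0.08 in HC and -0.30 ± 0.08 in PFC (adjusted p = 0.00128 and 0.00487). Between the regions 2 genes were lower in HC and none higher, beside 4.66% of all probe sets lower and 4.51% higher. The wider of these was Prkar2b, another regulatory subunit, with means of 7.97 ± 0.12 in HC and 8.99 ± 0.05 in PFC (difference -1.02 ± 0.14, adjusted p = 0.0016).

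Of 20 genes of the inhibitory G protein and arrestin arm, 19 were in the fit. There 14 were higher and 4 lower in HC than in blood, and 15 higher and 4 lower in PFC (medians 1.46 and 1.55), beside the same shares of all probe sets, 47.6% higher and 36.3% lower in HC and 47.3% and 36.7% in PFC. Ncs1, a calcium sensor that binds the D2 receptor, was not above background in blood and was at least 25.3-fold higher in HC and at least 21.7-fold higher in PFC (adjusted p = 1.35e-10 and 1.64e-10). Grk6, a kinase that phosphorylates active receptors, was lower in brain, with differences from blood of -1.81 ± 0.11 in HC and -1.61 ± 0.11 in PFC (adjusted p = 1.47e-07 and 3.41e-07). Between the regions 2 genes were higher and 2 lower in HC, beside 4.51% and 4.66% of all probe sets. Rgs4, which ends the signal of inhibitory G proteins, had means of 8.95 ± 0.12 in HC and 11.64 ± 0.11 in PFC, a difference of -2.68 ± 0.18 (adjusted p = 1.42e-05), and Kcnj6, a potassium channel opened by G proteins, was higher in HC by 0.69 ± 0.14 (adjusted p = 0.0136).

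**Figure D4:**
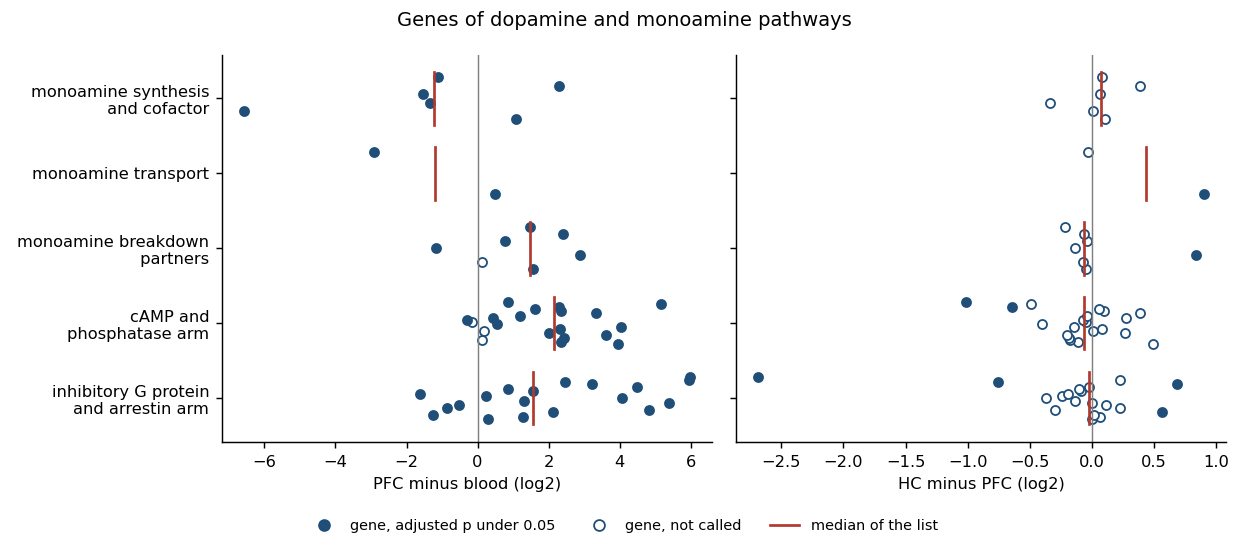
The log2 difference of each gene in the fit from the pathway lists (points, filled for an adjusted p under 0.05) between PFC and blood (left) and between HC and PFC (right), by list (vertical axis), with a red line at the median of each list. Gch1 lies farthest to the left against blood at -6.57, and Rgs4 farthest to the left between the regions at -2.68.

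Scaling on the housekeeping panel moved these lists as it moved all probe sets. The median difference over all probe sets in the fit shifted from 0.22 to -0.28 in HC against blood, from 0.20 to -0.38 in PFC against blood and from -0.003 to 0.08 in HC against PFC. The cyclic AMP and phosphatase arm then had 14 genes higher and 5 lower in HC and 14 higher and 4 lower in PFC, and the inhibitory arm 13 higher and 6 lower in both. Between HC and PFC the cyclic AMP and phosphatase arm then had 2 genes higher and 2 lower. Of the differences from blood of the named pathway genes, that of Slc29a4 in PFC turned sign (0.50 to -0.08).

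The genes in the fit whose 9 values ran most like those of each member were found by the root mean square difference after each gene's own mean was subtracted, among 9925 genes. Drd1 was closest to Rbis (0.07), Ints4 (0.08) and Ube2g1 (0.08), and Ppp1r1b to Fbxo34 (0.12), Ltbp3 (0.12) and Slc45a1 (0.14). Maoa was closest to Arhgap20 (0.14), Slc8a2 (0.17) and Lrrtm4 (0.18), and Maob to Atp6v1a (0.11), Ank3 (0.11) and Abi2 (0.11). These differences are in log2 units over 9 arrays of 3 tissues, which share their libraries.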

How the data were processed

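The authors hybridized total RNA of each sample to 1 array, quantile normalized the intensities and summarized them by RMA (robust multi-array average) before they deposited the values, which are read here as log2 (1.53 to 14.01), since the base is not stated. Quantile normalization sets the intensities of the arrays to a common scale, so a difference is relative to all other probe sets. The deposited values still differed in spread. Their SD over all probe sets was 1.85 to 1.90 in blood, 2.18 to 2.21 in HC and 2.19 to 2.21 in PFC. The detection p-values that the authors also used were not used here, and the genome build of the array annotation is not given in the sources used here. Of 29215 probe sets 29214 had values, and 15310 had exactly 1 symbol, of which 15279 were matched to a rat gene table (assembly GRCr8). Depth has no counterpart on arrays, whose number limits the precision.

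The tests used limma 3.58.1 (R 4.3.3), with lmFit and eBayes on a model of the 3 tissues without a block, and Benjamini-Hochberg adjustment over all probe sets in the fit and a threshold of 0.05. All adjusted p-values are from limma. With 3 arrays against 3, an exact two-sided permutation test cannot go below 0.1, so none is given. Where a gene has several probe sets, that of the highest mean over the 9 arrays stands for it. A fold of at least N sets the mean of the brighter tissue against the higher of the background level and the probe set's own value on each array of the dimmer one. The script was tested on simulated data. Summed marker levels are sums of 2 to the power of the deposited values.

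Tissue and rat came from the sample labels, which give the same animal for arrays of 1 number, so the numbers pair the arrays. Deviations from the tissue means correlated between HC and PFC of a rat (0.254, 0.137 and 0.287 for rats 2, 5 and 7, across probe sets) and little between blood and either region (-0.079 to 0.052). Arrays of different rats were not compared in this way. With the rat as a random term, the consensus correlation within a rat over the 3 tissues was 0.00257. Rat as a block was an alternative, as were no filter, a filter at 7.2, other scalings, 1 probe set per gene, other thresholds, trend and robust moderation, only the 6 arrays compared, and leaving out each array or rat. The 9 genes and the pathway and marker lists were chosen with earlier results of these data known. Named genes are all 9, up to 4 per pathway list (the widest called in each direction, between regions and against blood) and the 3 most alike genes per member in the fit. Pathway genes that did not reach the cut-off and single marker genes are named outside this rule and were chosen after their values were seen. Some genes of the lists are not reported here.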

Additional observations from a re-analysis of the deposited data

How the results depend on the processing

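Maoa and Maob kept their direction and their call against blood under every alternative run. Without the filter, 3 of the 9 genes were called lower in HC and 4 in PFC than in blood. All of these were genes that the filtered fit did not test. Then 22044 and 22091 probe sets were called, against 14163 and 14176. With 1 probe set per gene 8365 and 8357 were called. With a log2 difference over 1 also required, 8285 and 8219 were called, with 427 between HC and PFC. Of the 4 genes tested there, 2 were higher in PFC than in blood. At an adjusted p under 0.01, 868 probe sets were called between HC and PFC, against 1547.

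Scaling on the housekeeping panel lowered the share of higher calls from 56.7% to 40.2% (HC against blood) and from 56.3% to 37.3% (PFC against blood) and raised it from 49.2% to 64.3% (HC against PFC). It turned the HC difference from blood of Drd1 to -0.031 and of Ppp1r1b to -0.36, and the PFC difference of Ppp1r1b to -0.10. The HC minus PFC differences turned to 0.037 for Maoa and 0.051 for Drd4, and the PFC difference from blood of Drd2 to -0.54. Under this scaling 2 of the 4 genes tested were called higher in PFC than in blood. With only the 6 brain arrays, 4346 probe sets, 1 member gene higher and 1 lower were called between HC and PFC, and with the replicate block as well, a fit chosen after seeing the data, 4339 probe sets, 1 gene higher and 2 lower. In the 9-array fit the replicate block changed no call of the 9 genes.

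Leaving out each array or rat gave 0 to 1 of the 4 or 5 genes tested lower than blood in both HC and PFC. That gene was Slc18a2, which passed the filter, and so was tested, only without the blood array of rat 2 or without rat 2. Between HC and PFC 656 to 2632 probe sets were called, the highest without the blood array of rat 5. The HC minus blood difference of Ppp1r1b ran from -0.10 to 0.27 and the HC minus PFC difference of Maoa from -0.15 to 0.015. The number of arrays and the levels of 5 genes under the cut-off limit what could be measured.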
